A study of Mus musculus with 10 samples.

Results

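Microtubules are polymers of alpha and beta tubulin, and mammals encode each subunit in several genes, the isotypes. The messages of the isotypes were followed here through the development of the mouse neocortex. The set was defined by name as 10 genes: Tuba1a, Tuba1b, Tuba1c and Tuba4a for alpha tubulin, and Tubb2a, Tubb2b, Tubb3, Tubb4a, Tubb4b and Tubb5 for beta tubulin. Of these, 9 were found by symbol among the 6147 genes of the deposited table, 3 alpha and 6 beta, and all 9 were among the 6048 genes tested. Tuba1a was not analysed here, so sums and shares below cover 9 isotypes and no ratio of alpha to beta tubulin is given. Polyadenylated RNA was sequenced from neocortex that had been frozen, taken from wild type CD1 mice, an outbred strain, on the gestation days E12.5, E14, E15.5 and E17 and at birth (P0), with 2 libraries per stage and 10 in all. All groups had the same genotype, the labels name no treatment, and the groups are told apart by stage. RNA was isolated from tissue lysate that had been cleared by centrifugation. The libraries of a stage are called biological duplicates without naming animals or litters, so p-values measure only the spread between these samples.

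Alpha and beta tubulin join as a dimer, and dimers add to the ends of microtubules in the spindle of dividing progenitors and in the axons and dendrites of neurons. The isotypes are most alike in their folded core and differ most in the carboxy-terminal tail, which lies on the microtubule surface and carries modifications such as tyrosination and glutamylation. Tubb3, also called class III beta tubulin, is a textbook marker of neurons. Tubb2b and Tubb5 are known for the cortical malformations caused by their mutation in humans, and Tuba1b, Tuba1c, Tubb4b and Tubb5 are known from many dividing cell types.

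The tails are encoded by the last bases of each coding sequence, which are shown because the tail is the part of the protein by which isotypes are known to differ. The ends of the 6 beta coding sequences follow from 5′ to 3′, stop codon included, with capitals for bases that differ from Tubb2b at the aligned position or that Tubb2b lacks (GENCODE M21 coding sequences, GRCm38).
Tubb2b: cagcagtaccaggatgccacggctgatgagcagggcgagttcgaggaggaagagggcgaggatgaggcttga
Tubb2a: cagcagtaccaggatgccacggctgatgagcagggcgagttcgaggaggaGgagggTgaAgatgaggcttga
Tubb3: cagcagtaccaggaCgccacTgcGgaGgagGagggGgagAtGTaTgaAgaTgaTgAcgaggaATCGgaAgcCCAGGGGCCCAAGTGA
Tubb4a: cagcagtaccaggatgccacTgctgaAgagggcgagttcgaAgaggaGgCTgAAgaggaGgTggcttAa
Tubb4b: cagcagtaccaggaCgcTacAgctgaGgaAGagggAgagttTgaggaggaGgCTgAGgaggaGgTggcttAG
Tubb5: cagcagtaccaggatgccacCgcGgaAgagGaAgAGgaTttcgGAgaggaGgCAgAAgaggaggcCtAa

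These ends lie at chr13:34127471-34127542, reverse strand, for Tubb2b and at chr13:34074468-34074539, reverse strand, for Tubb2a. Those of Tubb3 and Tubb4a lie at chr8:123421596-123421682, forward strand, and chr17:57080690-57080758, reverse strand. Those of Tubb4b and Tubb5 lie at chr2:25222308-25222379, reverse strand, and chr17:35834982-35835050, reverse strand. Tubb2a and Tubb2b were nearly the same here, with 3 of 72 bases in capitals, whereas Tubb3 had 35 of 87. Over the rest of the coding sequence, with paired bases only, Tubb3 was 85.0% identical to Tubb2b. Over its end it was 59.8% identical, with unpaired bases counted as differences. The values for the rest and for the end are thus not like for like. For Tubb5 these values were 84.5% and 72.2%.

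The deposited values were TPM, a share of transcripts on a fixed total, which is per length and can be compared between genes. Read numbers were not given in the sources used here. The tissue label was checked against neocortical genes, of which 6 of 9 were in the table. Their summed level lay between 1002 and 1609 TPM in every library. Summed levels of 11 proliferation genes dropped from 1503 ± 47.6 TPM in the E12.5 libraries to 171 ± 1.57 TPM in those of P0 (SD, n = 2), and those of 8 genes of maturing neurons rose from 319 ± 5.77 to 1845 ± 2.96 TPM. Between E14 and E15.5 summed levels of 2 choroid plexus genes went from 1461 to 3.86 TPM, of 2 embryonic red blood cell genes from 1925 to 8.75 TPM and of 5 meningeal genes from 108 to 2.91 TPM, and stayed low thereafter. For the summed neocortical genes the E17 libraries were the furthest apart of the 5 stages, at 1609 and 1276 TPM, which did not hold for every marker sum.

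Between E12.5 and P0 the make-up of tubulin message was reordered. Tubb2a, Tubb4a, Tubb3 and Tubb2b, and from a low level Tuba4a, rose, while Tuba1c, Tuba1b and Tubb4b fell. Tubb5, the most abundant isotype at E12.5, was not called. In limma's moderated test on log2(TPM + 1), with Benjamini-Hochberg adjustment over all genes and a threshold of 0.05, 5 of 9 isotypes rose and 3 fell. Of all 6048 genes tested 27.1% rose and 51.0% fell, 78.2% in either direction, so the count of calls is near the background. Here and below, shares of all genes refer to the genes tested and not to the whole transcriptome. All 9 isotypes passed the F test over the 5 stages, as did 82.9% of all genes. The libraries of P0 and E12.5 did not overlap for 9 of 9 isotypes, against 90.9% of all genes. The median change of the isotypes was 0.76 on the log2 scale, against -0.27 for all genes tested. Median-of-ratios scaling, which moves the median of all genes to -0.01, left 6 isotypes higher, Tubb5 among them, and 3 lower. Markers of proliferation and of maturing neurons moved over the same span, as given above, and their part in these changes was not tested.

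**Figure D1:**
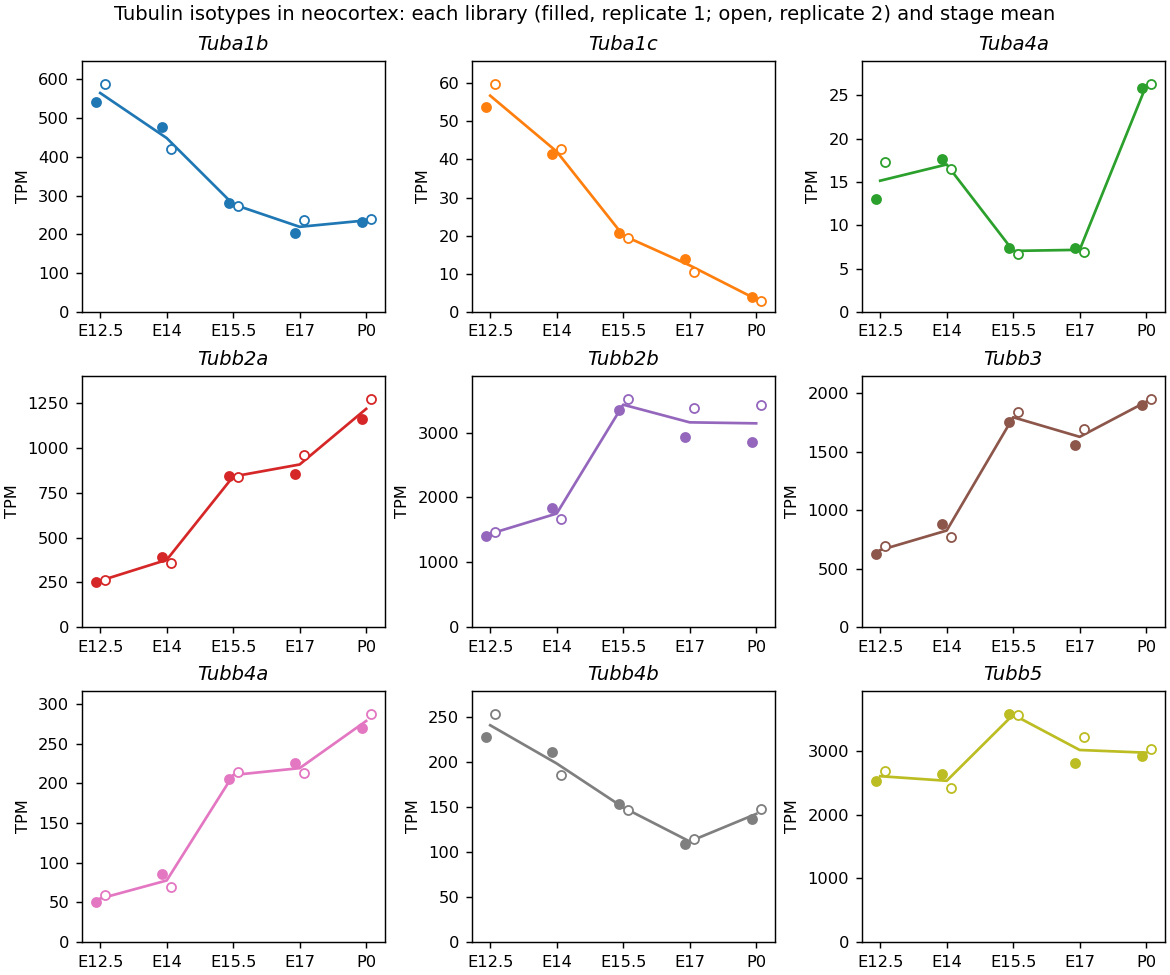
TPM of each isotype (vertical axis, from 0, own scale per gene) at the 5 stages (horizontal axis), with a filled point for replicate 1, an open point for replicate 2 and a line through the stage means. Tubb2a climbed from 253 TPM in the lowest E12.5 library to 1275 TPM in the highest P0 library, while Tuba1c dropped from 59.8 to 2.80 TPM.

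Tubb2a encodes a beta tubulin that is abundant in neurons. Its level was 253 and 263 TPM in the E12.5 libraries, 390 and 360 TPM at E14, 846 and 837 TPM at E15.5, 856 and 961 TPM at E17, and 1164 and 1275 TPM at P0. Both libraries of each stage lay above both of the stage before, at every step. From E12.5 to P0 Tubb2a rose by 2.23 on the log2(TPM + 1) scale (SE 0.09, adjusted p 7.5e-10 in limma), from a mean of 258 to 1220 TPM, a ratio of 4.73. Only 186 of the 6048 genes had a larger rise.

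Tubb4a, an isotype known from neurons and later from oligodendrocytes, had the largest rise of the set. It stood at 50.6 and 58.8 TPM at E12.5, 85.8 and 69.3 TPM at E14, 206 and 215 TPM at E15.5, 225 and 213 TPM at E17, and 270 and 288 TPM at P0. The libraries of E15.5 and E17 overlapped, and those of all other neighbouring stages were apart. The rise from E12.5 to P0 was 2.33 (SE 0.11, adjusted p 2.46e-09 in limma), a ratio of 5.09 in mean TPM.

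Tubb3, the neuronal class III isotype, was at 623 and 693 TPM at E12.5 and at 881 and 771 TPM at E14. It reached 1755 and 1837 TPM at E15.5, with 1560 and 1697 TPM at E17 and 1904 and 1953 TPM at P0. Its level thus moved in 1 large step, after which all 6 later libraries lay above all 4 earlier ones. From E12.5 to P0 Tubb3 rose by 1.55 (SE 0.10, adjusted p 4.38e-08 in limma).

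Tubb2b, a beta isotype of newly made neurons and progenitors, followed the same course at a higher level. Its libraries were at 1408 and 1469 TPM at E12.5, 1842 and 1661 TPM at E14, 3345 and 3523 TPM at E15.5, 2936 and 3386 TPM at E17, and 2856 and 3435 TPM at P0. The 6 libraries from E15.5 on overlapped one another and lay above the 4 earlier ones. Tubb2b rose by 1.12 from E12.5 to P0 (SE 0.12, adjusted p 4.44e-06 in limma). By its mean over the 10 libraries, 2586 TPM, Tubb2b ranked 13 of 6147 genes, and Tubb5, at 2936 TPM, ranked 8.

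Tubb5, a beta isotype expressed in most tissues, changed least. It was at 2524 and 2680 TPM at E12.5, 2638 and 2420 TPM at E14, 3578 and 3556 TPM at E15.5, 2803 and 3223 TPM at E17, and 2920 and 3022 TPM at P0. The E15.5 libraries were the highest of all. P0 exceeded E12.5 by 0.19 (SE 0.11, adjusted p 0.127 in limma), which did not pass. It was called at 0.47 (adjusted p 0.0122) after median-of-ratios scaling, and its sign turned to -0.03 after quantile normalization. It was also called, at an unchanged 0.19, without E17 replicate 1 (adjusted p 0.00911), without E17 replicate 2 (0.00914) and with only the 4 libraries compared (0.0312).

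Tubb4b, a beta isotype of dividing and ciliated cells, was at 229 and 254 TPM at E12.5, 212 and 186 TPM at E14, 153 and 147 TPM at E15.5, 109 and 115 TPM at E17, and 137 and 148 TPM at P0. Its E17 libraries were the lowest, and the P0 libraries lay above them and below those of E14. Tubb4b fell by 0.75 from E12.5 to P0 (SE 0.09, adjusted p 8.67e-06 in limma).

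Among the alpha isotypes, Tuba1b, which many cell types express, was at 541 and 589 TPM at E12.5, 477 and 420 TPM at E14, 282 and 273 TPM at E15.5, 203 and 236 TPM at E17, and 233 and 240 TPM at P0. The level went down over the first 3 steps with no overlap between neighbouring stages, and the E17 and P0 libraries overlapped. Tuba1b fell by 1.25 from E12.5 to P0 (SE 0.09, adjusted p 1.79e-07 in limma).

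Tuba1c, a close paralog of Tuba1b, had the steepest fall of the set. Its libraries stood at 53.6 and 59.8 TPM at E12.5, 41.3 and 42.9 TPM at E14, 20.8 and 19.3 TPM at E15.5, 13.8 and 10.6 TPM at E17, and 3.85 and 2.80 TPM at P0. Both libraries of every stage lay below both of the stage before. Tuba1c fell by 3.75 from E12.5 to P0 (SE 0.14, adjusted p 6.89e-10 in limma), a scale that understates changes of low values, and its mean TPM was 17.1 times higher at E12.5. Only 54 of the 6048 genes had a larger fall. In bulk tissue, fewer cells of a type and less RNA per cell cannot be told apart.

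Tuba4a is known as the alpha isotype made without the terminal tyrosine that Tuba1b and Tuba1c carry. It was the only isotype of the 9 with a called fall followed by a called rise of more than 1 on the log2 scale. It was at 13.0 and 17.3 TPM at E12.5 and at 17.6 and 16.4 TPM at E14, dropped to 7.36 and 6.70 TPM at E15.5, stayed at 7.40 and 6.91 TPM at E17, and stood at 25.9 and 26.3 TPM at P0. The P0 libraries were the highest of all, and the 4 of E15.5 and E17 the lowest. From E14 to E15.5 Tuba4a fell by 1.16 (SE 0.13, adjusted p 2.03e-05 in limma), and from E17 to P0 it rose by 1.73 (SE 0.13, adjusted p 6.97e-06). Summed red blood cell markers were at 1925 TPM at E14, 8.75 TPM at E15.5 and 2.10 TPM at P0, and their part in this course was not tested. From E12.5 to P0 the rise was 0.76 (SE 0.13, adjusted p 0.000197).

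The summed TPM of the 9 isotypes rose in 1 step, between E14 and E15.5. It made up 0.569% and 0.608% of all TPM in the E12.5 libraries, 0.658% and 0.595% at E14, 1.02% and 1.04% at E15.5, 0.871% and 0.985% at E17, and 0.951% and 1.04% at P0. All 6 libraries from E15.5 on were above all 4 earlier ones, and those of E15.5, E17 and P0 overlapped in part. Markers of choroid plexus, red blood cells and meninges dropped at the same step, and their part in this rise was not tested. The mean was 0.589% ± 0.0275 at E12.5 and 0.995% ± 0.0619 at P0 (SD, n = 2 each).

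Shares of this sum do not depend on how a library was scaled. Tubb5 made up 44.3% and 44.1% of it at E12.5 and 30.7% and 29.1% at P0, a drop of 14.3 percentage points that was the largest of the 9. Tubb3 went from 10.9% and 11.4% to 20.0% and 18.8%, and Tubb2a from 4.44% and 4.33% to 12.2% and 12.3%. The gains of these neuronal isotypes were close to each other, at 8.24 percentage points for Tubb3, 7.87 for Tubb2a and 7.11 for Tubb2b, which went from 24.4% to 31.5% on average. Tuba1b dropped from 9.51% and 9.67% to 2.44% and 2.31%. Most of that drop was reached by E15.5, when its share was 2.77% and 2.63%.

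The smaller isotypes moved as well. Tubb4b made up 4.09% ± 0.110 of the sum at E12.5 and 1.43% ± 0.0119 at P0, and Tubb4a 0.928% ± 0.0552 and 2.80% ± 0.0490 (SD, n = 2 each). Tuba1c went from 0.963% ± 0.0295 to 0.0337% ± 0.00957. The share of Tuba4a was 0.256% ± 0.0391 at E12.5 and 0.263% ± 0.0133 at P0, with libraries that overlapped, although its TPM rose. Its difference of 0.00657 percentage points turned to -0.0211 without E12.5 replicate 1 and to -0.00285 without P0 replicate 1.

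**Figure D2:**
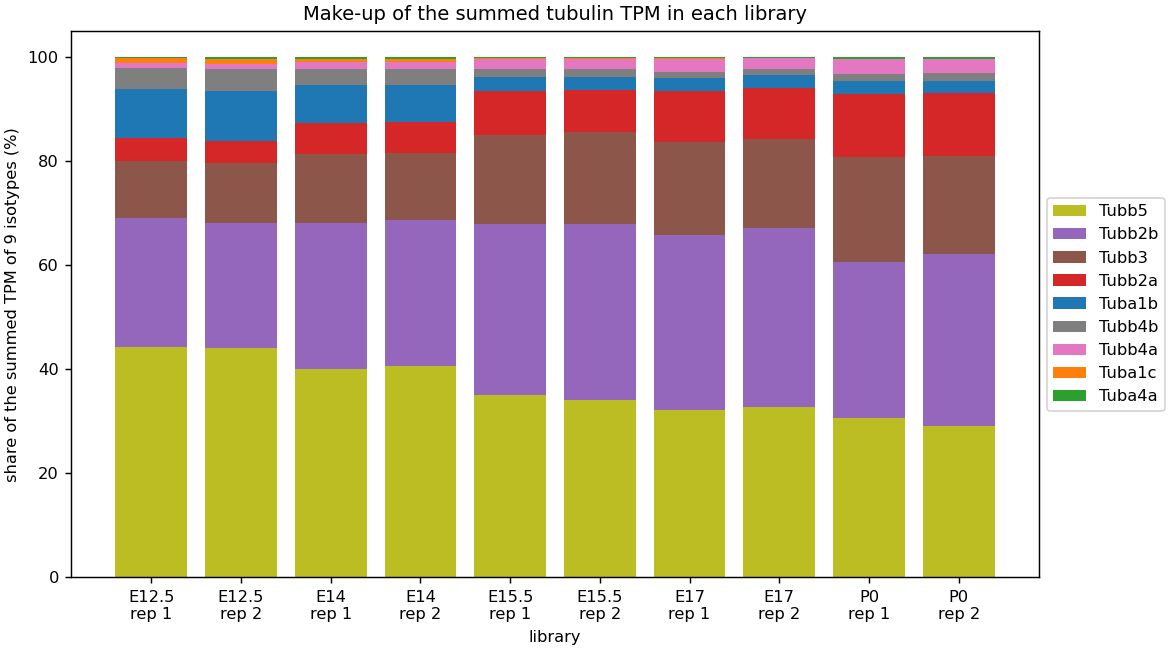
Share of each isotype (vertical axis, percent of the summed TPM of the 9 isotypes) in each of the 10 libraries (horizontal axis), stacked from Tubb5 at the bottom. The Tubb5 part shrank from 44.2% at E12.5 to 29.9% at P0 on average, while Tubb2b, Tubb3 and Tubb2a widened.

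The rank order of levels in TPM changed with these shifts. At E12.5 the order was Tubb5, Tubb2b, Tubb3, Tuba1b, Tubb2a, Tubb4b, Tuba1c, Tubb4a and Tuba4a. In that order the libraries of Tubb2a and Tubb4b overlapped, as did those of Tuba1c and Tubb4a, and all other neighbours were apart. At E14 Tubb4a stood above Tuba1c, and at E15.5 Tubb2a stood above Tuba1b and Tubb4a above Tubb4b, with all neighbours apart at both stages. At E17 Tubb2b and Tubb5 overlapped, and so did Tuba1b and Tubb4a. By P0 the order was Tubb2b and Tubb5, which overlapped, then Tubb3, Tubb2a, Tubb4a, Tuba1b, Tubb4b, Tuba4a and Tuba1c, each apart from the next.

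Ratios within a library compare isotypes free of the scaling between libraries. The log2 ratio of Tubb4a to Tubb4b was -2.18 and -2.11 at E12.5, -1.30 and -1.42 at E14, 0.43 and 0.55 at E15.5, 1.04 and 0.90 at E17, and 0.98 and 0.96 at P0. The pair thus changed places between E14 and E15.5 in the deposited TPM. There was 4.41 times as much Tubb4b as Tubb4a at E12.5, and 1.96 times as much Tubb4a as Tubb4b at P0. Of the 50-base stretches of Tubb4b 50.9% also occur in other genes, so its level and the stage of the crossing are uncertain. The ratio of Tubb3 to Tubb5 also rose, from -2.02 and -1.95 at E12.5 to -0.62 and -0.63 at P0, without crossing 0. For Tubb2a to Tubb2b, the pair with the most alike coding sequences among the beta isotypes, it went from -2.48 in both E12.5 libraries to -1.30 and -1.43 at P0, and it was higher at each stage than at the one before in every library. The log2 ratio of Tubb2b to Tubb5 was -0.84 and -0.87 at E12.5 and -0.03 and 0.19 at P0.

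The alpha ratios moved most at the last step. For Tuba1c to Tuba1b the log2 ratio was -3.34 and -3.30 at E12.5, -3.53 and -3.29 at E14, -3.76 and -3.82 at E15.5, -3.87 and -4.48 at E17, and -5.92 and -6.42 at P0, so that the largest step came last. For Tuba4a to Tuba1b it was -5.38 and -5.09 at E12.5, between -5.35 and -4.68 in the 6 libraries from E14 to E17, and -3.17 and -3.19 at P0. At P0 Tuba4a was thus above all earlier libraries relative to Tuba1b.

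**Figure D3:**
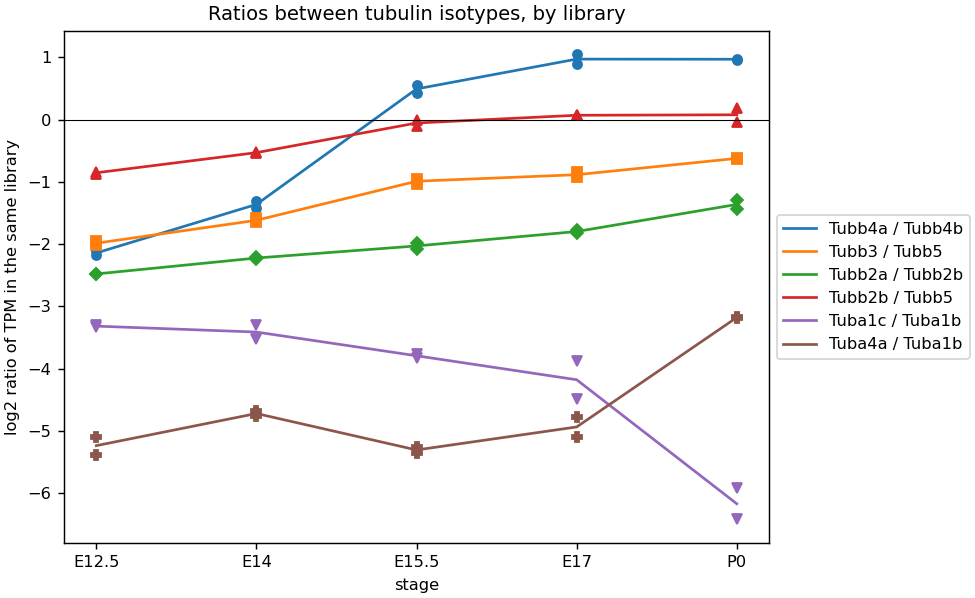
Log2 ratio of TPM between 2 isotypes of the same library (vertical axis) at the 5 stages (horizontal axis), with points for single libraries and lines through stage means. Tubb4a to Tubb4b crossed 0 between E14 and E15.5, and Tuba1c to Tuba1b fell from -3.32 to -6.17.

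The steps between neighbouring stages differed in how many isotypes they moved. From E14 to E15.5 every one of the 9 passed, 5 higher (Tubb2a, Tubb2b, Tubb3, Tubb4a and Tubb5) and 4 lower (Tuba1b, Tuba1c, Tuba4a and Tubb4b), where 51.7% of all genes passed, 18.4% higher and 33.3% lower. The libraries did not overlap for any of the 9, as for 87.8% of all genes. Within the set all beta isotypes except Tubb4b rose, and the 3 alpha isotypes analysed fell. Outside the set the beta isotype Tubb6 fell too, from a mean of 10.3 to 2.68 TPM, and Tuba1a was not analysed here. The changes ran from -1.16 for Tuba4a to 1.44 for Tubb4a (adjusted p at most 0.00270 in limma), and all 9 were called under every alternative tried. Markers of choroid plexus, red blood cells and meninges dropped between the same stages, and their part in the changes was not tested.

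From E12.5 to E14 only 3 isotypes passed, 2 higher and 1 lower, against 8.73% of all genes, 3.95% higher and 4.78% lower. Libraries did not overlap for 7 of the 9, and for 70.0% of all genes. Tubb2a rose by 0.54 (adjusted p 0.00490 in limma) and Tubb4a by 0.49 (0.0164), and Tuba1b fell by 0.33 (0.0495). None of the 3 passed when E12.5 replicate 1, E12.5 replicate 2 or E14 replicate 1 was left out, and the call of Tuba1b was kept in 6 of 22 alternatives. The adjusted p of Tubb2a was 0.0812, 0.052 and 0.0764 without these libraries. With E17 replicate 1 or replicate 2 left out of the shared estimate of spread, 7 isotypes passed.

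From E15.5 to E17 Tuba1b, Tuba1c and Tubb4b went on falling. These 3 passed, all lower, where 25.0% of all genes did, 14.4% higher and 10.6% lower. Libraries did not overlap for 6 of the 9, and for 60.4% of all genes. Tuba1c fell by 0.68 (adjusted p 0.00703 in limma), Tubb4b by 0.42 (0.00669) and Tuba1b by 0.34 (0.0225). None of the 3 passed without E15.5 replicate 1, with adjusted p between 0.0700 and 0.143. Tubb2a, Tubb2b, Tubb3 and Tubb4a lay between -0.14 for Tubb3 and 0.11 for Tubb2a and were not called. Neither were Tubb5 (-0.25, adjusted p 0.119) and Tuba4a (0.02, adjusted p 0.915). The E17 libraries of Tubb5 lay below those of E15.5. Tubb5 was called lower after quantile normalization (-0.32, adjusted p 0.00544), and was at -0.35 without E17 replicate 2.

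From E17 to P0 there were 4 rises and 1 fall, where 41.7% of all genes passed, 12.9% higher and 28.8% lower. Libraries did not overlap for 6 of the 9, and for 61.9% of all genes. Tuba4a rose most, Tubb2a rose by 0.43 (adjusted p 0.00314 in limma), Tubb4b by 0.35 (0.00964) and Tubb4a by 0.34 (0.0231), and Tuba1c fell by 1.61 (1.79e-05). Tubb4b had fallen in the step before. Without P0 replicate 2, Tubb4a (adjusted p 0.121) and Tubb4b (0.0619) were no longer called, and without P0 replicate 1 Tubb4a was not (0.0636). Tubb3 was at 0.25 (adjusted p 0.0657) and was called without E17 replicate 2 (0.00638), after median-of-ratios scaling (0.0349) and after quantile normalization (0.0462). Tubb2b, Tubb5 and Tuba1b were between -0.02 and 0.11 with libraries that overlapped, and were not called. After quantile normalization Tubb2b was called lower, at -0.24 (adjusted p 0.0342), whereas after median-of-ratios scaling it was at 0.10 and not called (0.606). Tuba1b ran from -0.0018 to 0.22 as single libraries were left out.

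**Figure D4:**
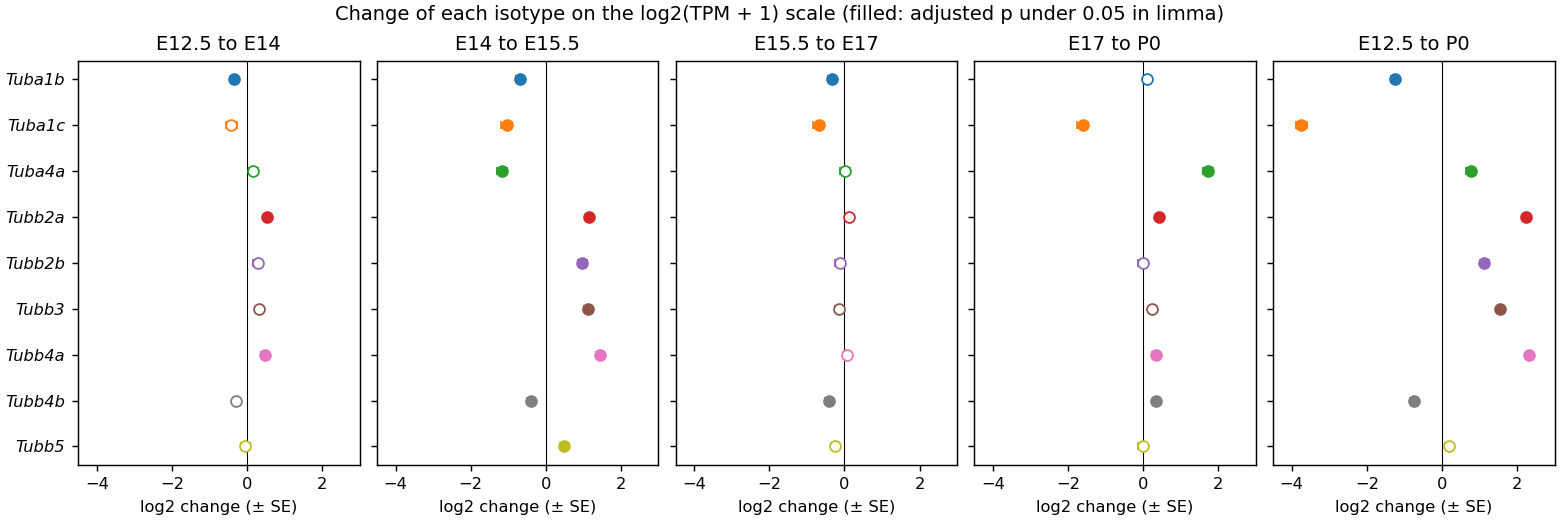
Change of each isotype on the log2(TPM + 1) scale (horizontal axis, with SE as error bars) for the 4 neighbouring steps and for E12.5 to P0; filled points had an adjusted p under 0.05 in limma. All 9 points are filled from E14 to E15.5, against 3 from E12.5 to E14 and 3 from E15.5 to E17.

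Isotypes differ in how well short reads can tell them apart. Of all stretches of 50 bases in the transcripts of Tuba1b, 73.8% also occurred in a transcript of another gene, most often Tuba1c (59.3%), and for Tuba1c the share was 61.0%, most often with Tuba1b (52.0%). It was 49.6% for Tubb2a and 39.3% for Tubb2b, mostly with each other, and 50.9% for Tubb4b, mostly with the pseudogene Tubb4b-ps1 (43.6%). Tubb3 shared none, and Tuba4a, Tubb4a and Tubb5 shared at most 1.11%. The treatment of reads with several matches was not given in the sources used here. The split between Tuba1b and Tuba1c, and that between Tubb2a and Tubb2b, is therefore uncertain. The level of Tubb4b is uncertain for the same reason, and so is the stage at which Tubb4a passed it. Tuba1a, not analysed here, had 72.9% of its stretches in other transcripts, most often Tuba1c (46.9%), and whether its reads entered the levels of Tuba1b and Tuba1c was not tested. Tuba1b and Tuba1c both fell, and Tubb2a and Tubb2b both rose. The rises of Tubb3 and Tubb4a and the course of Tuba4a rest on sequences that are almost all their own. Gene models of GENCODE M21 also overlap Tuba1b (Gm41396 and, on the same strand, Gm49450), Tubb3 (Gm20388, same strand), Tuba4a (Stk16, opposite strand) and Tubb4b (Fam166a, opposite strand). The library kit keeps strand, but the use of strand in the counting was not given in the sources used here.

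Promoter sequence was set beside the opposite courses of the isotypes. RefSeq (GRCm38.p6) gave a start for 8 of the 9 isotypes, all except Tubb2b. The 250 bases before each start were searched on both strands for 5 motifs, and the share of 32851 promoters of the same length that hold each was taken as background. TATAAA was held by 12.4% of them, and CCAAT by 33.8%. GGGCGG was held by 32.7%. Of the E box forms, CAGCTG was held by 13.0% and CATCTG by 14.4%. TATAAA was found only before Tubb2a among the 8. That promoter (chr13:34078009-34078258, reverse strand) is shown as an isotype that rose, with TATAAA and both GGGCGG matches in capitals, the first of which lies on the other strand.
Tubb2a: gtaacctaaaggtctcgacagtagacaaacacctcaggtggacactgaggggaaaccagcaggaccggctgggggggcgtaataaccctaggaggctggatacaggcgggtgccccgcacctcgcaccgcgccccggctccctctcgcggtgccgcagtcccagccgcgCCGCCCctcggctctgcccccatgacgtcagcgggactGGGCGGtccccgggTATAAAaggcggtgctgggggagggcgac

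CCAAT was found before Tuba1c, Tubb3, Tubb4b and Tubb5. Tubb4b held 5 matches in its 250 bases (chr2:25224703-25224952, reverse strand), the most of the 8, and is shown as an isotype that fell, with CCAAT and the single GGGCGG in capitals.
Tubb4b: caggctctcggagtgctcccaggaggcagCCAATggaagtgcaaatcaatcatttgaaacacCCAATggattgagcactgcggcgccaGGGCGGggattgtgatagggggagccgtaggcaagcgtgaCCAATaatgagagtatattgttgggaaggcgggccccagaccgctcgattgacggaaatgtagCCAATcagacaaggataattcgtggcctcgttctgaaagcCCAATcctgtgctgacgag

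Tuba1c, which fell most, held 1 match of CCAAT (chr15:99029641-99029890, forward strand), which lies on the other strand, and none of the other 4 motifs.
Tuba1c: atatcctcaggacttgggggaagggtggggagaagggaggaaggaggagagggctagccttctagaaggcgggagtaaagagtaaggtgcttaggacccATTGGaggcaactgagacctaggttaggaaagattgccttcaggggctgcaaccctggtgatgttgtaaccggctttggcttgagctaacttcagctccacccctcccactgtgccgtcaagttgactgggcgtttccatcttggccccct

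The matches did not separate isotypes that rose from those that fell: CCAAT stood before Tubb3, which rose, and before Tuba1c and Tubb4b, which fell, and Tubb4a, which rose most, held none of the 5 motifs. Matches of the motifs did not overlap one another in the sequences shown. A match is a description of letters and not of a bound site.

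The genes whose levels ran most like each isotype over the 10 libraries were picked by Pearson correlation of log2(TPM + 1), among 5428 genes that average 10 TPM or more and are no tubulin. Libraries of a stage share that stage, so the values are a description with 10 points. Tubb4a ran closest to Mapt, which encodes the microtubule-associated protein tau (r = 0.997), and then to Dync1i1, an intermediate chain of the dynein motor (0.996). Dync1i1 was also among the 3 nearest genes of Tubb3, together with Ankmy2 (0.994) and Ttll1 (0.992), a tubulin polyglutamylase. Mapt went from 86.6 to 1048 TPM between E12.5 and P0. Tubb2a ran closest to Mllt11 (0.997), and Rbfox1, a neuronal splicing factor, was the next (0.997). For Tuba1c the nearest were Cdk1, the kinase that starts mitosis (0.997), H2afy (0.996) and Ube2c, which acts in the destruction of cyclins (0.996). Cdk1 went from 194 TPM to 13.3 TPM over the same span.

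Tuba1b ran closest to Eno1, a glycolytic enzyme (r = 0.998), Tubb2b to Cryzl1 (0.992) and Tubb4b to Ahcy (0.994). The likeness was weakest for Tuba4a, nearest to Pts (0.958), and for Tubb5, nearest to Lonp2 (0.938). With Spearman's rank correlation at most 1 of the 3 nearest genes of an isotype was the same, so the names depend on the measure. Among the isotypes themselves r was 0.993 for Tubb2a with Tubb4a and 0.993 for Tubb3 with Tubb4a, -0.958 for Tuba1b with Tubb4a, and 0.970 for Tuba1b with Tubb4b.

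Genes that fold, join and modify tubulin were compared between E12.5 and P0 by list. Lists are described by their counts and medians, without a test of the list. The genes of tubulin modification, at the tails and elsewhere, leaned upward. Of 25 listed, 10 were tested, of which 7 rose and 0 fell. Their median was 0.81 against -0.27 for all genes, of which 27.1% rose and 51.0% fell. Summed markers of maturing neurons rose from 319 to 1845 TPM over the same span, and their part in these rises was not tested. Agtpbp1, which trims glutamates from tubulin, rose by 1.98 (SE 0.10, adjusted p 4.8e-09 in limma) and stood at 52.5 TPM at P0. Atat1, the acetylase of alpha tubulin, rose by 1.43 (adjusted p 3.66e-09), and Ttl, which puts the tyrosine back on alpha tubulin, by 1.25 (2.1e-07). Vash2, a tubulin carboxypeptidase that removes this tyrosine, rose by 1.04 (8.58e-07), whereas the related Vash1 was at -0.33 (0.0755). At an unchanged -0.33 Vash1 was called lower with array weights (adjusted p 0.00206) and with only the 4 libraries compared (0.0017). After median-of-ratios scaling Vash1 was at -0.06 and not called (0.698). The list's counts were the same after median-of-ratios scaling, with 7 higher and 0 lower.

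The genes of microtubule nucleation leaned downward. Of 14 tested genes of the gamma tubulin ring complex and augmin, 10 fell and none rose, where 51.0% of all genes fell and 27.1% rose, and the median was -1.08. Nedd1, which brings the ring complex to centrosomes and spindles, fell by 3.15 (SE 0.12, adjusted p 7.93e-10 in limma), with means of 32.2 TPM at the start and 2.72 TPM at birth. The augmin subunits Haus6 (-2.08), Haus4 (-1.94), Haus3 (-1.88) and Haus1 (-1.33) fell, and so did Cdk5rap2 (-1.45) and Tubgcp4 (-1.31). Haus7 was at 0.11 (adjusted p 0.31) and was not called. Summed proliferation markers dropped from 1503 to 171 TPM over the same span, and their part in these falls was not tested. After median-of-ratios scaling 10 fell and 2 rose, Haus7 (0.37) among them.

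Of 14 tested subunits and partners of the chaperonin and prefoldin, which fold new tubulin and actin, 8 fell and 1 rose, where 51.0% of all genes fell and 27.1% rose, so the count of falls is near the background. Their median of -0.24 was close to that of all genes, and after median-of-ratios scaling 2 fell and 1 rose with a median of 0.04. Pdcl fell most, by 0.78 (adjusted p 1.78e-06 in limma), and the prefoldin subunit Pfdn5 rose by 0.42 (0.00994). Without P0 replicate 1 Pfdn5 was no longer called (adjusted p 0.0596). Of 7 genes listed as tubulin dimer cofactors, their relatives or regulators, 4 rose and 2 fell, where 27.1% of all genes rose and 51.0% fell. The median was 0.31. Tbce, which acts on alpha tubulin, rose most (0.61, adjusted p 0.000263). Tbcel, counted among the 7 as a relative of Tbce and not as a cofactor, fell most (-0.52, adjusted p 0.00362). After quantile normalization Tbcel was at -0.24 and was not called (adjusted p 0.0503). After median-of-ratios scaling 5 rose and 1 fell.

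Tubulin messages are also degraded when free dimers are in excess. The factor Ttc5 reads the start of the new tubulin chain and recruits the CCR4-NOT deadenylase, which acts on many other messages too. Ttc5, named after its value was seen, averaged 63.1 TPM at the first stage and 56.4 TPM at birth, a difference of -0.16 (SE 0.08, adjusted p 0.0879 in limma) that turned to 0.11 after median-of-ratios scaling and to 0.01 after quantile normalization. It passed without E17 replicate 1 (adjusted p 0.0405), without E17 replicate 2 (0.0406) and without P0 replicate 1 (0.0397). Of the 8 genes of this list 6 were tested, of which 4 fell and none rose, where 51.0% of all genes fell and 27.1% rose. The median was -0.58, against -0.27 for all genes, and after median-of-ratios scaling 4 fell and none rose. Cnot1, the scaffold of CCR4-NOT, fell by 1.41 (SE 0.16, adjusted p 5.49e-06), with means of 44.3 and 16.1 TPM, and its deadenylase subunit Cnot7 was at -0.11 (0.213), turning to 0.16 after median-of-ratios scaling.

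Spast, which encodes the microtubule-severing enzyme spastin, was at 0.04 (adjusted p 0.631 in limma) and was called at 0.32 (0.00492) after median-of-ratios scaling. Of the tubulins outside the set, Tubb6 and Tube1 were tested and both fell. Tubb6, a beta isotype, was at 13.4 TPM in each E12.5 library, 11.1 and 9.42 TPM at E14, 2.89 and 2.47 TPM at E15.5, 2.11 TPM on average at E17, and 1.91 and 1.64 TPM at P0. It fell by 2.38 from E12.5 to P0 (SE 0.12, adjusted p 6.57e-09 in limma), and Tube1, which encodes epsilon tubulin of centrioles, by 1.11 (2.5e-05). Tubb6 dropped most between E14 and E15.5, with the meningeal, choroid plexus and red blood cell markers, whose part in this was not tested.

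**Figure D5:**
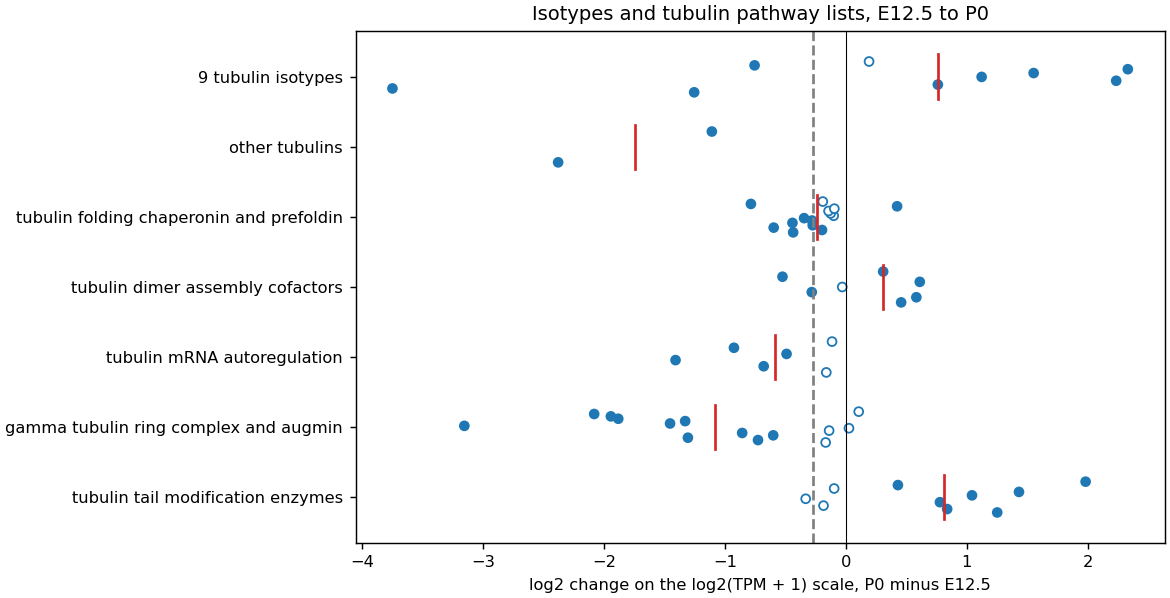
Change from E12.5 to P0 on the log2(TPM + 1) scale (horizontal axis) for the 9 isotypes and for pathway lists; points are genes, filled where the adjusted p was under 0.05 in limma, red bars are list medians and the dashed line is the median of all genes at -0.27. The isotypes spread from -3.75 to 2.33. Genes of tubulin modification, labelled tail modification enzymes, lie mostly to the right of the dashed line and nucleation genes mostly to the left.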

How the data were processed

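RNA was measured in 10 libraries of CD1 neocortex, 2 per stage. Per the file headers, the authors deposited TPM, 1 column per library, for 6147 genes. STAR, Subread and GRCm38.p5 appear in the submitters' processing notes; versions, settings, annotation and gene lengths were not given in the sources used here. The listed genes hold between 68.9% and 71.7% of all TPM per library. TPM are shares, so abundant genes that rise lower all others.

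Genes with a mean under 1 TPM were left out (99), and 6048 were tested as log2(TPM + 1). The test was that of limma 3.58.1 (R 4.3.3). Its model held a mean for each of the 5 stages, fitted to the 10 libraries together, 5 residual degrees of freedom and a variance trend. Depth is unknown; precision rests on the shared spread, with a median SE of 0.107 (log2). Benjamini-Hochberg adjusted p-values under 0.05 were called. Sums, shares and ratios were described without a test. Simulated tables of 6048 genes held each gene's mean over the 10 libraries, with independent normal noise of limma's own moderated spread. Between 78 and 82 of 100 genes changed by 0.5 were recovered per comparison, between 98 and 100 of 100 changed by 1, and between 8 and 12 unchanged genes were called. Far fewer genes changed there than were called from E12.5 to P0, and no deviation was shared within a library. The simulation thus checks the fit and does not measure recovery or false calls in the real libraries.

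Members and lists were chosen with earlier results of these data known. Named genes were the members, for each the 3 genes with the highest Pearson correlation, and in each pathway list the highest and lowest change and every call of at least 1 from E12.5 to P0; Ttc5 was added after its value was seen, and motifs and sequences serve as description. Some genes and sequences are not reported here. Coding ends were aligned with MAFFT 7.526 from GENCODE M21, an annotation chosen here. Tables were made with pandas 2.3.3 and numpy 2.4.6 in Python 3.11.15, and figures with matplotlib 3.10.9. Alternatives (22 for each tested value) changed the pseudocount, filter, scaling, moderation, weights, libraries in the fit and replicate block, and left out each library in turn.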

Additional observations from a re-analysis of the deposited data

How the results depend on the processing

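All 9 isotypes were called from E14 to E15.5 under all 22 alternatives, and from E12.5 to P0 and in the F test 8 or 9 were. The smaller steps depended on the fit. From E12.5 to E14 the count of 3 became 7 with array weights, 7 with only the 4 libraries compared and 5 with quantile normalization, and ran from 0 to 7 as single libraries were left out. From E15.5 to E17 the count of 3 became 0 with only the 4 libraries compared and ran from 0 to 4 as single libraries were left out. From E17 to P0 the count of 5 became 3 with array weights and 2 with only the 4 libraries compared, and ran from 3 to 7. The cause was not tested. With a replicate block the counts were 2, 9, 3 and 5 for the 4 steps, 8 from E12.5 to P0 and 9 in the F test. The labels name nothing that replicate numbers share. Over the 10 pairs of stages the correlations of replicate differences ran from -0.37 to 0.11, with 1 above 0.1 and 3 below -0.1. Libraries of the same number thus deviated in the same direction at most weakly, and in opposite directions where the correlation was negative. A batch that does not follow the numbers was not tested.

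The rise of the summed isotypes, 0.406 percentage points of all TPM, was 0.559 with median-of-ratios scaling and 0.600 as a share of the listed genes. The share of Tuba4a, at 0.00657 percentage points, ran from -0.0211 to 0.0342 as single libraries were left out. Of 990 single isotype values 907 kept direction and call. Uncalled values near 0 changed sign. With median-of-ratios scaling Tubb5 was at 0.015 from E12.5 to E14 and at 0.10 from E17 to P0, Tubb2b at 0.10 from E17 to P0, Cnot7 at 0.16 and Ttc5 at 0.11. With quantile normalization Tuba4a was at -0.079 from E15.5 to E17, Tubb5 at -0.033 from E12.5 to P0 and Ttc5 at 0.012. With single libraries left out, ranges were -0.021 to 0.36 for Tuba4a from E12.5 to E14, -0.10 to 0.021 for Tubb5 from E12.5 to E14, -0.036 to 0.081 for Tuba4a from E15.5 to E17, -0.0018 to 0.22 for Tuba1b from E17 to P0, -0.14 to 0.12 for Tubb2b from E17 to P0, -0.12 to 0.084 for Tubb5 from E17 to P0 and -0.021 to 0.10 for Spast from E12.5 to P0.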
